A study of Mus musculus with 2 samples.

Results

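Hepatic stellate cells were followed through 10 of their marker genes in precancerous mouse liver, and 4 of the 5 genes of the activated state were at least 2-fold lower in the Kdm3a knockout array than in the Kdm3a wild-type array, while the 5 genes of the quiescent state lay within 2-fold. Among all genes measured, 8.96% were lower and 3.83% higher by at least that much. The quiescence genes were Lrat, Reln, Colec11, Ecm1 and Hgf, and the activation genes were Acta2, Tagln, Des, Pdgfra and Pdgfrb. They were chosen by name as known markers, with earlier results of these data known. Every probe set that the platform annotation assigned to a single one of them was taken, 21 probe sets in all. The 10 genes stand among 11693 genes that passed the filter on signal. Des, among the 4 lower genes, passed it through its wild-type signal.

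The first liver was Pik3caTg;Kdm3aKO, from mice with a hepatocyte-specific transgene of Pik3ca, the catalytic subunit of phosphoinositide 3-kinase, and with a knockout of Kdm3a, a demethylase of histone H3 lysine 9. The liver it was set against was Pik3caTg;Kdm3aWT, which carried the same transgene and wild-type Kdm3a. A liver without the transgene was not analysed here, so both arrays share activated kinase signalling in hepatocytes, and the transgene is described for hepatocytes and not for stellate cells. The labels name no cell type for the knockout, no promoter, and no age, sex or number of animals behind an array, and the mice ate regular chow. Each genotype was measured on 1 Affymetrix array, so there was no test, no error between animals and no p-value, and all differences describe these 2 arrays.

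Stellate cells lie between the sinusoidal endothelium and the hepatocytes. In the quiescent state they store vitamin A as retinyl esters. On injury, and in the tissue around many liver tumours, they turn into contractile, matrix-producing myofibroblasts under the control of platelet-derived growth factor and transforming growth factor beta. Several markers are shared with other cells: Acta2, Tagln and Des with vascular smooth muscle, Pdgfra and Pdgfrb with fibroblasts and, for Pdgfrb, with pericytes, and Des and both receptors are also present in quiescent stellate cells of rodents. In whole tissue, fewer cells of a type and less RNA per cell cannot be told apart.

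Kdm3a, read by 1 probe set, had a signal of 61.6 in the knockout array and 719.9 in the wild-type array, and the position of that probe set relative to the deletion is unknown here. Signals are MAS5 intensities on a linear scale, and a log2 ratio is that of the knockout over the wild-type signal. Values under 46.5, the 40th percentile of all values, were raised to that floor before a ratio was taken. The 3′ over 5′ signal ratio was 0.654 in the knockout and 0.701 in the wild type for Gapdh, and 1.99 in the knockout and 1.85 in the wild type for beta-actin. The 18S ribosomal RNA control probe sets were 1.74-fold to 1.89-fold higher in the knockout array, and their part in the results was not tested. Over all 11693 genes, the median log2 ratio was -0.02, 8.96% were lower by 2-fold or more and 3.83% higher by as much.

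**Figure D1:**
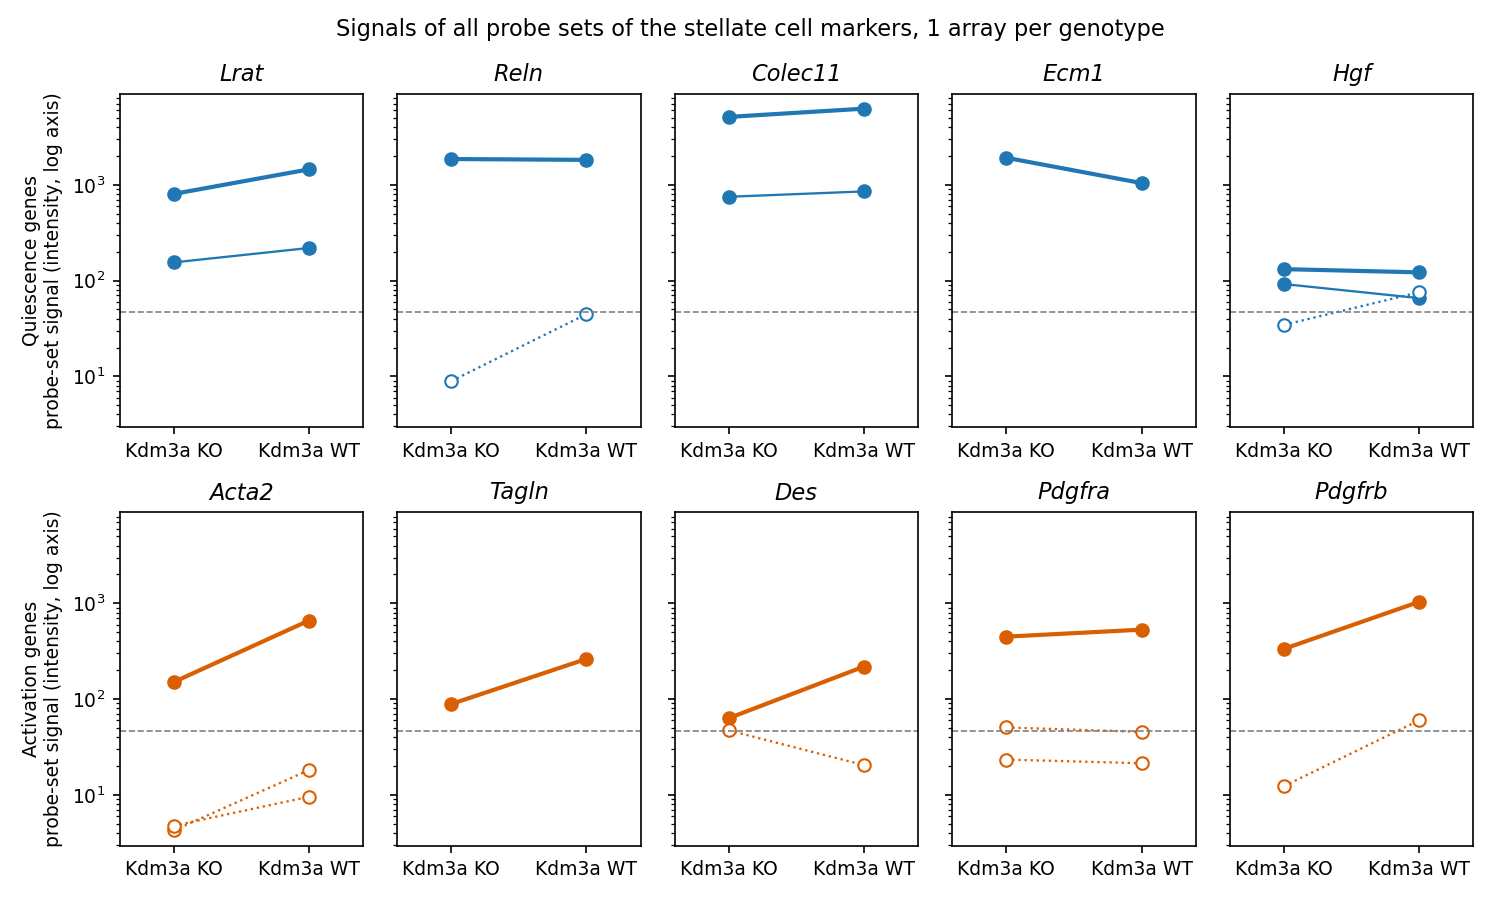
Probe-set signal (intensity, log axis) of the 10 stellate cell markers in the Kdm3a knockout array (left of each panel) and the Kdm3a wild-type array (right), quiescence genes above in blue and activation genes below in orange. Each line is 1 probe set, filled points with solid lines passed the filter on mean signal, open points with dotted lines did not, the thickest line is the brightest probe set of a gene, and the dashed grey line is the floor of 46.5. The solid lines of Acta2, Tagln, Des and Pdgfrb climb steeply toward the wild type, while those of Reln, Colec11 and Pdgfra and the brightest of Hgf are nearly flat, and Ecm1 and the dimmer kept probe set of Hgf are higher in the knockout.

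Among the genes of the contractile cytoskeleton, Acta2, which encodes alpha smooth muscle actin and is the most used marker of activated stellate cells, had a signal of 150.5 in the knockout array and 661.0 in the wild-type array. This is a 4.39-fold lower signal, with a log2 ratio of -2.13, and 142 of the 11693 genes had a lower ratio. Its other probe sets gave 4.25 and 4.75 in the knockout and 18.2 and 9.56 in the wild type. Those values lie below the floor on both arrays and carry no ratio. The single probe set of Acta2 that passed has a name ending, _s_at, that marks possible reading of related transcripts, and actins are near-identical to each other. The close relative Actg2, an actin of visceral smooth muscle, was below the floor on both arrays. Whether the Acta2 probe set read other actins was not tested.

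Tagln, which encodes the actin-binding protein transgelin, had a signal of 88.8 in the knockout array and 262.7 in the wild-type array, a log2 ratio of -1.56 and a 2.96-fold lower signal. Des encodes desmin, the intermediate filament of muscle and of rodent stellate cells. Its signal was 63.2 in the knockout array and 218.8 in the wild-type array, a log2 ratio of -1.79 and a 3.46-fold lower signal. Tagln and Des were dim genes in the knockout, at 1.91 and 1.36 times the floor. The knockout signal of Des lay below the lowest mean signal kept, 73.7, so Des passed the filter through its wild-type signal. A second Des probe set pointed the other way, with 47.1 in the knockout and 20.4 in the wild type. Its mean was under the filter, and after the floor its log2 ratio was 0.02.

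The receptors of platelet-derived growth factor differed from each other. Pdgfrb, the receptor subunit that drives proliferation and migration of activated stellate cells, had a signal of 334.0 in the knockout array and 1036 in the wild-type array, a log2 ratio of -1.63 and a 3.10-fold lower signal. A dimmer Pdgfrb probe set, under the filter, gave 12.3 in the knockout and 59.99 in the wild type, a signal at least 1.29-fold lower. The brighter one has the name ending _a_at, for several transcripts, and without probe sets of such endings Acta2 and Pdgfrb have no value. Pdgfra, the subunit that also binds the A chain of the growth factor and that marks mesenchymal cells widely, was close to even. Its signal was 448.9 in the knockout array and 530.9 in the wild-type array, a log2 ratio of -0.24. Its 2 other probe sets, under the filter, gave 50.6 and 23.4 in the knockout and 45.5 and 21.4 in the wild type. The log2 ratio of Pdgfra was thus 1.39 above that of Pdgfrb. For scale, kept probe sets of the same gene differed with an SD of 0.446 in log2 ratio over 4958 genes, a figure that covers error within the arrays alone.

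Among the quiescence genes, Lrat encodes lecithin retinol acyltransferase, the enzyme that makes the retinyl esters stellate cells store. It was the lowest of the 5. Its brightest probe set had a signal of 802.8 in the knockout array and 1450 in the wild-type array, a log2 ratio of -0.85. Its second probe set gave 154.8 in the knockout and 219.1 in the wild type, a log2 ratio of -0.50. Both readings were lower in the knockout and neither reached 2-fold. Of all genes, 1290 (11.0%) had a lower ratio than the brightest.

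Reln encodes reelin, a secreted glycoprotein that in liver is made by stellate cells, and its signals were nearly equal, at 1860 in the knockout array and 1822 in the wild-type array, with a log2 ratio of 0.03. A second Reln probe set was below the floor on both arrays, at 8.92 in the knockout and 44.6 in the wild type. Colec11 encodes collectin 11, a soluble lectin that starts the lectin pathway of complement. Its probe sets gave 5119 and 750.3 in the knockout array and 6240 and 853.6 in the wild-type array. The log2 ratios of -0.29 and -0.19 lay close together and within the spread between probe sets.

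Hgf encodes hepatocyte growth factor, the ligand of the MET receptor, which stellate cells supply to hepatocytes. Its brightest probe set gave 131.8 in the knockout array and 121.9 in the wild-type array, a log2 ratio of 0.11. A second gave 92.0 in the knockout and 65.6 in the wild type, a log2 ratio of 0.49. Another, under the filter, gave 34.5 in the knockout and 75.5 in the wild type, which is at least 1.62-fold lower, so the probe sets of Hgf did not share a direction. Ecm1, a matrix glycoprotein known in mouse liver for restraining the activation of latent transforming growth factor beta and reported from hepatocytes as well as stellate cells, was the highest member. Its signal was 1917 in the knockout array and 1043 in the wild-type array, a log2 ratio of 0.88 or 1.84-fold, and 5.05% of genes had a higher ratio.

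Set side by side, the activation genes had a median log2 ratio of -1.63 and the quiescence genes of 0.03, a difference of -1.66. All 10 members had a probe set above the filter. Of the 5 activation genes, 4 were at least 2-fold lower, and of the 5 quiescence genes 0 were lower and 0 higher, against the 8.96% and 3.83% of all genes. Des, among these 4, passed the filter through its wild-type signal. The 25 pairs of an activation with a quiescence gene reuse the same 10 ratios and are not separate observations. In 23 of them the activation gene had the lower ratio, and in 18 a ratio at least 2-fold lower. Both exceptions were pairs of Pdgfra, with Lrat and with Colec11. Such a difference within an array is the same whatever constant an array is scaled by. The 4 lower activation genes spanned 0.57 in log2 ratio, from -2.13 to -1.56, while the quiescence genes spanned 1.73, from Lrat to Ecm1. Summed over genes, the signal of the activation genes was 1085 in the knockout array and 2710 in the wild-type array, and that of the quiescence genes 9830 in the knockout and 10677 in the wild type.

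Lower ratios were more frequent among dim genes, and the members differ in brightness. The genes were split by mean signal into 5 groups of equal size. In the dimmest group, with Des and Hgf, 14.8% of 2339 genes were lower by 2-fold or more. The share was 12.2% in the next group, with Tagln, and 7.99% in the middle one, with Acta2, Pdgfra and Pdgfrb. It was 5.35% in the group with Lrat, Reln and Ecm1, and 4.40% in the brightest, with Colec11. Higher ratios were also most frequent in the dimmest group. From the dimmest group to the brightest, 8.17%, 3.04%, 1.75%, 1.71% and 4.49% of genes were higher by 2-fold or more. The middle group held no quiescence gene, and Des, in the dimmest with Hgf, was kept through its wild-type signal. The part of brightness in the contrast was not tested.

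**Figure D2:**
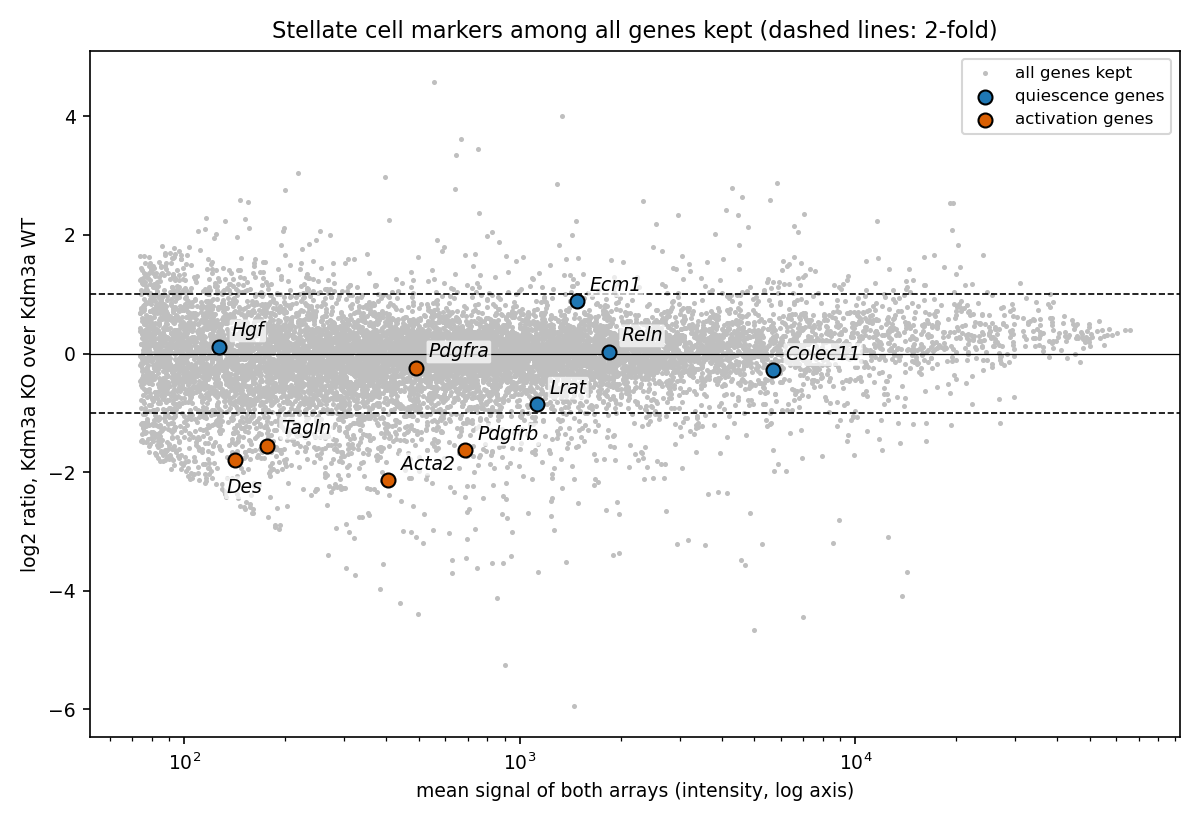
Log2 ratio of knockout over wild-type signal against mean signal of both arrays (intensity, log axis) for all 11693 genes kept, in grey, with quiescence genes in blue and activation genes in orange. Dashed lines mark 2-fold. Acta2, Des, Pdgfrb and Tagln lie below the lower line, Pdgfra and the quiescence genes lie between the lines, and Ecm1 at 0.88 lies just under the upper line.

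The scaling of the arrays moves all ratios together. With the arrays scaled on the poly-A controls, RNAs added before labelling, the median of all genes moved up by 0.17, and the share of genes past 2-fold became 6.81% on the lower and 5.86% on the higher side. On that scale Ecm1 stood at 1.05, past 2-fold, Acta2 at -1.96, Des at -1.62, Pdgfrb at -1.46 and Tagln at -1.39. The signs of the near-even members Reln and Hgf depended on the scaling: with scaling on the hybridisation controls, which moved the median of all genes by -0.13, Reln stood at -0.10 and Hgf at -0.02. The difference of medians was -1.66 with the poly-A controls, with the hybridisation controls and with equal array medians, and -1.61 after quantile normalization or loess. With a floor at the 60th percentile of signal, Des (-0.77) lay within 2-fold, Tagln stood at -1.04 and the difference of medians was -1.07.

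**Figure D3:**
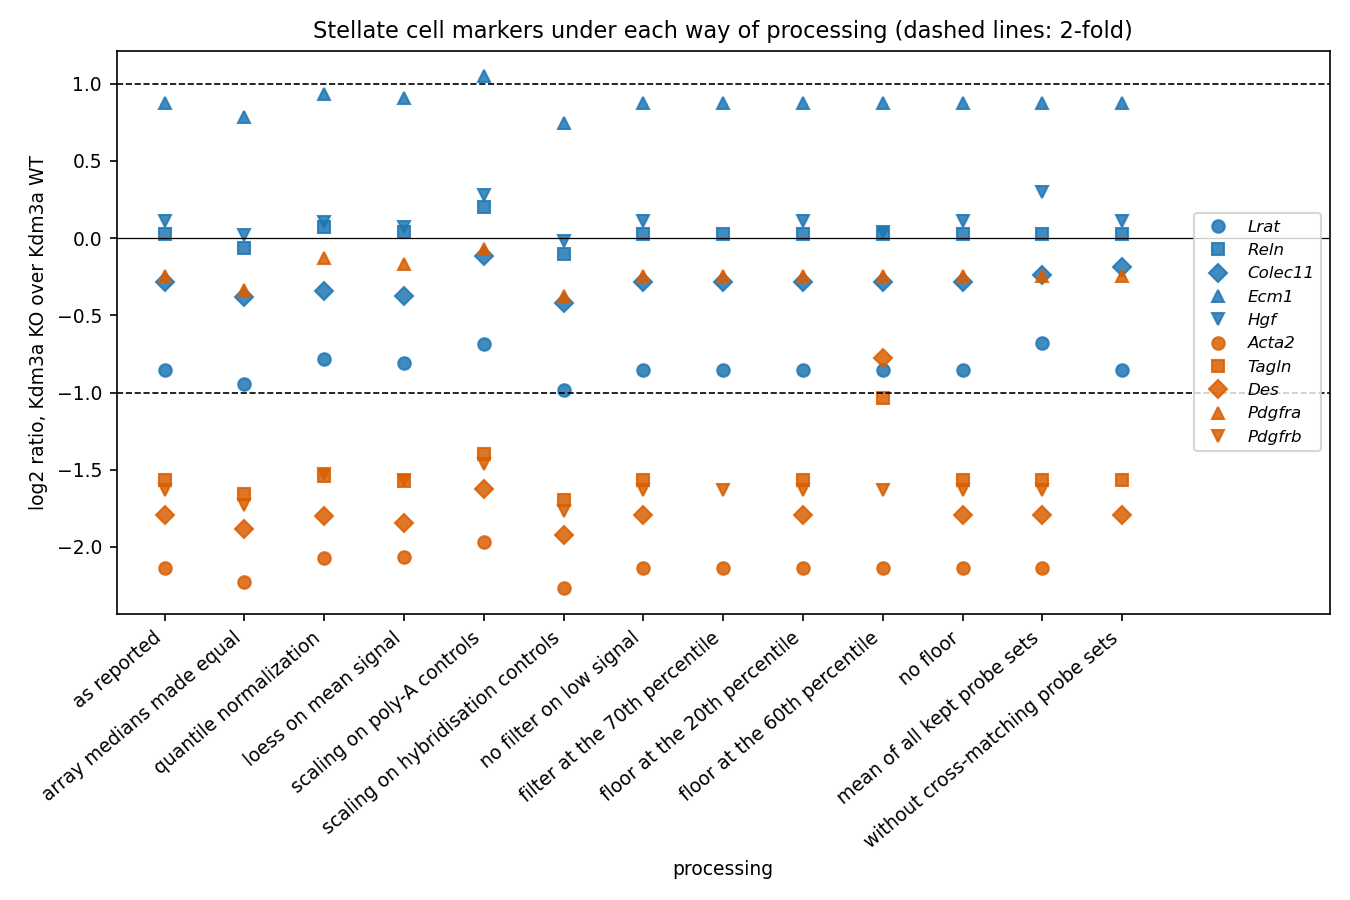
Log2 ratio of knockout over wild-type signal for each of the 10 members as reported and under 12 other ways of processing, quiescence genes in blue and activation genes in orange, with dashed lines at 2-fold. A gene without a kept probe set under a setting has no point there. Acta2 and Pdgfrb lie below the lower line wherever they have a point, and Ecm1 passes the upper line with poly-A scaling alone.

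Promoters are shown for the lowest activation gene, Acta2, and for the lowest and the highest quiescence gene, Lrat and Ecm1, because their ratios span the range of the members. The sequences are RefSeq windows of assembly GRCm38.p6 from 250 bases before to 50 bases after an annotated start, written 5′ to 3′ on the strand of the gene, which is the minus strand for all 3. Capitals mark 3 kinds of match on either strand: the CArG box bound by serum response factor, with at most 1 mismatch in its A and T core, the AP-1 site TGANTCA, and the TEAD site CATTCC. No match overlaps another in these windows.
Acta2, chr19:34255324-34255623: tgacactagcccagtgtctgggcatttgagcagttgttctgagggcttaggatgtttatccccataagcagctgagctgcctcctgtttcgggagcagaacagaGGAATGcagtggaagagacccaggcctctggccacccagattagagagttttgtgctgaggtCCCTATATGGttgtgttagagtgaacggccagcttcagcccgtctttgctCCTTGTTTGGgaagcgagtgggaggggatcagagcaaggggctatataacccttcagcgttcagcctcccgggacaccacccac
Lrat, chr3:82903925-82904224: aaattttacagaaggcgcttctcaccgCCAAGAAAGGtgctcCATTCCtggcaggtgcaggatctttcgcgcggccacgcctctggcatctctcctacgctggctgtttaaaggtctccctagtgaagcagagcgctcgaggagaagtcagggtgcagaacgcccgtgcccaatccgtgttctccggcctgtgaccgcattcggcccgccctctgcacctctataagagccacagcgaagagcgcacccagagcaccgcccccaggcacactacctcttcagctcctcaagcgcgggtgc
Ecm1, chr3:95739520-95739819: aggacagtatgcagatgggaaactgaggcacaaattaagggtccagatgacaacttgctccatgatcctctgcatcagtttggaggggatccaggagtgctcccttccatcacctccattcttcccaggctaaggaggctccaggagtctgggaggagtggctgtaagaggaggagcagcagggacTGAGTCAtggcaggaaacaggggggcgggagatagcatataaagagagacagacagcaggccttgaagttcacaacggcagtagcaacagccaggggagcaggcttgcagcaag

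The Acta2 window held 2 CArG-like matches, each with 1 mismatch, that begin 84 and 34 bases upstream of the annotated start, and a TEAD match that begins 146 bases upstream. CArG boxes of the Acta2 promoter are textbook elements of its smooth muscle control. The Lrat window also held a CArG-like match, 223 bases upstream, and a TEAD match, 208 bases upstream. The Ecm1 window held an AP-1 match 64 bases upstream. Of the members, 8 had a window among those searched, and the other 5 of them, Reln, Colec11, Hgf, Des and Pdgfra, held no match. An exact CArG box was in 0 of the 8. With 1 mismatch allowed it was in 2 of 8, against 11.3% of 27025 genes. The TEAD site was in 2 of 8 against 16.6% of genes, and the AP-1 site in 1 of 8 against 8.97%. A match is a description of letters, and with 8 members the shares cannot be set apart from those of all genes.

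Further genes of the activated stellate cell were lower as well. Of 19 listed, 14 passed the filter, and 11 of these lay past 2-fold on the lower side and 0 on the higher. The counts of this and the following lists stand beside 8.96% lower and 3.83% higher among all genes. The median was -2.11, with bounds entered at their bound. The lowest were the gelatinase Mmp2, at least 12.3-fold lower with 34.7 in the knockout and 573.0 in the wild type, and the fibrillar collagen Col3a1, with 731.7 in the knockout and 8624 in the wild type. The connective tissue growth factor gene Ccn2 (-0.70) and the fibronectin gene Fn1 (-0.01) were the highest, and the second probe set of Fn1 stood at 1.07. The ratios of Mmp2, Lox, Loxl1 and Tnc are bounds, since their knockout signal was under the floor, so these 4 passed the filter through their wild-type signal. With the floor at the 60th percentile the list's median was -1.40. Earlier results of these data had shown the collagens to be low, so this list is no independent support. Tgfb1 was under the filter, at 66.2 in the knockout and 79.3 in the wild type.

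Further genes of the quiescent stellate cell differed less. Of 20 listed, 14 passed, with 1 past 2-fold on the lower side, 0 on the higher and a median of -0.47. The lowest were the leucine-rich proteoglycan Prelp (-1.07), with 716.5 in the knockout and 1505 in the wild type, and the stellate cell globin Cygb (-0.91), with 62.5 in the knockout and 117.4 in the wild type. Cygb passed the filter through its wild-type signal. The highest were the intermediate filament gene Nes (0.99) and the transcription factor Gata4 (0.77). The placing of Nes with quiescent genes was not tested here, so its ratio is not read as one of that state. The lower ratios included Lhx2 (-0.50), the transcription factor that holds mouse stellate cells quiescent, and Hand2 (-0.39), both named after their values were seen. Of the 14, 10 had a negative ratio. Among the intermediate filaments of mesenchymal cells, 3 of 5 passed: vimentin (Vim, -2.37), Des and Nes, with 2 past 2-fold on the lower side, 0 on the higher, and a median of -1.79, which is Des itself. That median was -0.69 without a filter, -2.37 with the filter at the 70th percentile and -0.77 with the floor at the 60th, and Nes lay past 2-fold on the higher side after quantile normalization, loess or poly-A scaling. Gfap was under the filter, with 42.1 in the knockout and 75.2 in the wild type.

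In the contractile apparatus that Acta2 and Tagln belong to, 11 of 19 listed genes passed, with 6 past 2-fold on the lower side, 0 on the higher and a median of -1.32. The myosin light chain Myl9 (at least 3.29-fold lower, kept through its wild-type signal) and the LIM protein Csrp1 (-1.53) were lowest. Serum response factor itself, Srf (0.25), and the tropomyosin Tpm2 (0.19) were highest, though a second Tpm2 probe set stood at -0.90. Genes of the differentiated smooth muscle cell were dim on both arrays. Cnn1, Actg2 and Lmod1 were below the floor on both, and Myh11, the smooth muscle myosin, had 68.0 in the knockout and 41.8 in the wild type. Synpo2, with 56.7 in the knockout and 29.5 in the wild type, went the same way. Smtn, with 42.5 in the knockout and 91.2 in the wild type, and Pln, with 29.55 and 76.2, went the other way. This list depended on the filter and the floor, with a median of -0.42 without a filter and -0.54 with the filter at the 70th percentile or the floor at the 60th.

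On the side of the growth factors, 11 of 13 listed PDGF ligand and signalling genes passed, with a median of -0.27. Past 2-fold were 2, both lower and both ligands, beside 8.96% of all genes lower by as much. Pdgfc, which binds the alpha receptor, had 354.3 in the knockout and 1162 in the wild type (-1.71). Pdgfd, which binds the beta receptor, had 143.8 in the knockout and 379.4 in the wild type (-1.40). The highest were Stat3 (0.49) and the adaptor Gab1 (0.14). In the HGF pathway, 9 of 11 listed genes passed, and their median of 0.04 turned to -0.06 with equal array medians, -0.10 with the hybridisation controls and -0.11 without a filter. Past 2-fold were 2, both lower and both kept through their wild-type signal, beside the same 8.96% of all genes. They were the proteases Plat, the tissue plasminogen activator (-3.01, 68.6 in the knockout and 551.3 in the wild type), and St14, the matriptase (-1.99). The receptor gene Met had 3213 in the knockout and 3048 in the wild type, a log2 ratio of 0.08, named after its value was seen. The activator protease Hgfac (0.91) and hepsin, Hpn (0.21), were highest.

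Genes around Lrat, Reln and Colec11 were counted in the same way. Retinoid storage and handling had 16 of 21 listed genes measured, 5 of them past 2-fold on the lower side and 0 on the higher. The median was -0.26, and 0.09 with the filter at the 70th percentile. The lipoprotein lipase Lpl (-1.87) and Aldh1a2, a retinal dehydrogenase (at least 3.12-fold lower, kept through its wild-type signal), were lowest. The triglyceride synthase Dgat2 (0.39) and the retinol carrier Rbp4 (0.38) were highest. Of 5 measured reelin receptor and pathway genes, 0 were past 2-fold. Their median was -0.16, or 0.01 with poly-A scaling, from Crk (-0.39) and the receptor Vldlr (-0.33) to Fyn (0.01) and Crkl (0.05). All 8 collectins and lectin pathway genes were measured, with a median of 0.68. The ficolin Fcna (1.04) alone lay past 2-fold, and 0 did with equal array medians. Masp2, the serine protease that cleaves complement factors for the pathway (0.96), was next, and Fcnb (-0.65) and Colec12 (-0.17) were lowest. Fcnb, at 63.5 in the knockout, passed the filter through its wild-type signal. Colec10, which pairs with Colec11 in the circulation, had 1271 in the knockout and 757.8 in the wild type, a log2 ratio of 0.75, named after its value was seen.

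**Figure D4:**
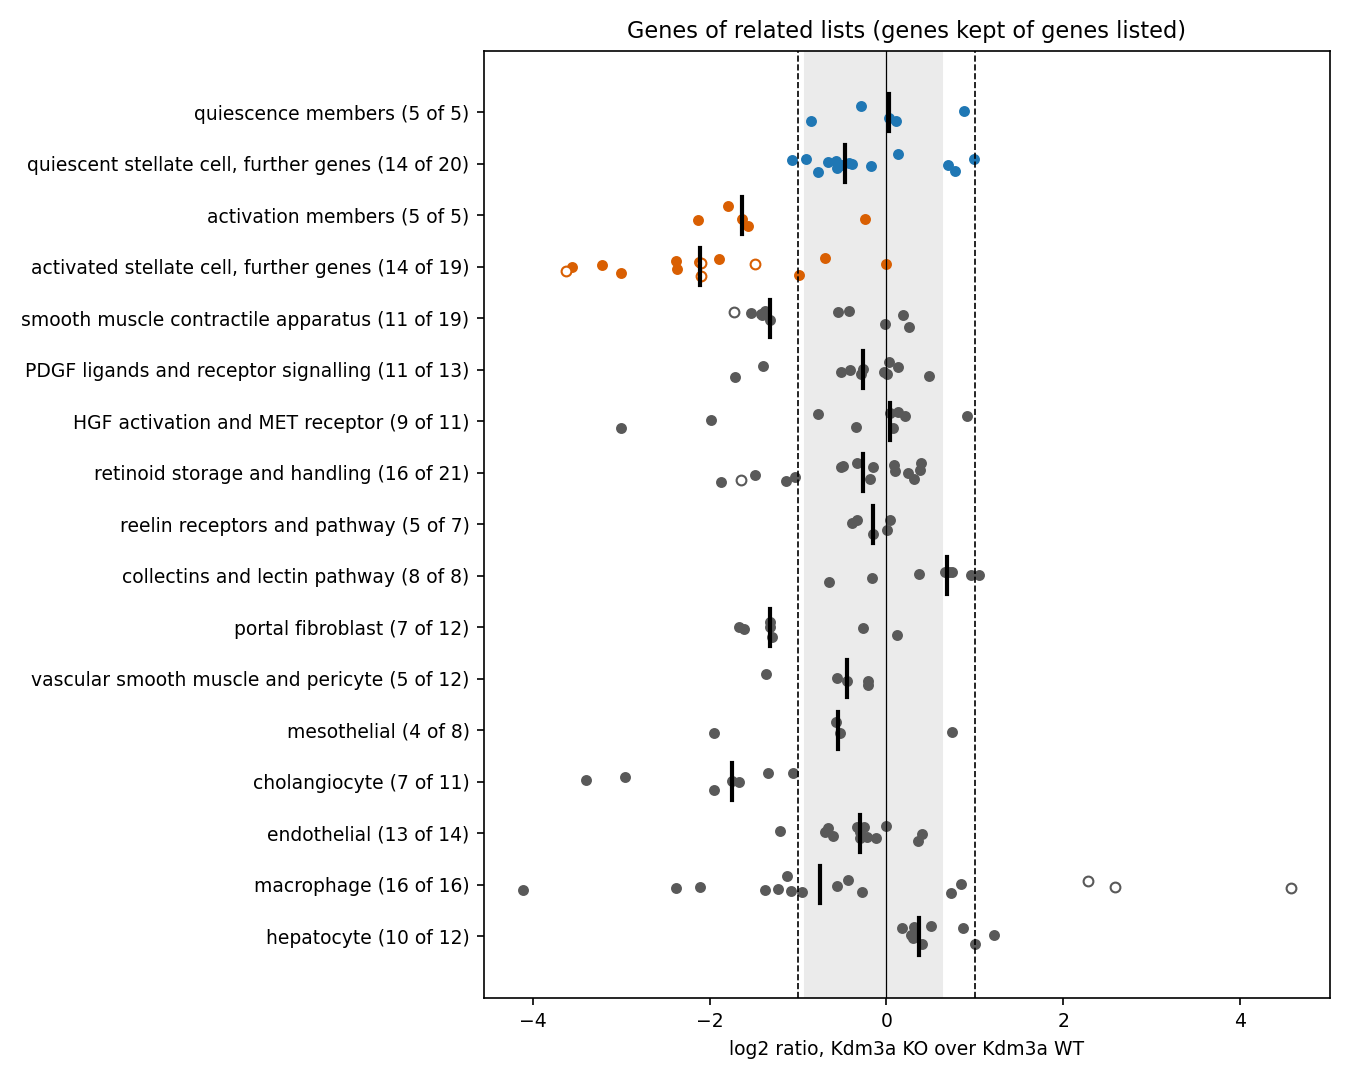
Log2 ratio of knockout over wild-type signal for the genes of each list that passed the filter, with their number of those listed, quiescent stellate cell genes in blue, activated in orange and other lists in grey. Each point is a gene, open points are bounds, black bars are list medians, dashed lines mark 2-fold and the shaded band holds the middle 80% of all genes kept. The activated stellate cell lists lie mostly left of the lower line, the quiescent ones mostly between the lines.

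Among markers of other cells, those of portal fibroblasts and bile duct cells were mostly lower, and their part in the result was not tested. Of 12 portal fibroblast markers, 7 passed and 5 of them were lower by 2-fold or more. Among these 5, Thy1 had 49.0 in the knockout and 121.8 in the wild type. It passed through its wild-type signal, and its ratio is the list median. The median was -1.31, or -0.50 without a filter, and the summed signal was 2147 in the knockout and 5145 in the wild type. Cd34 (-1.66) and the matrix protein gene Dpt (-1.61) were lowest and Fbln2 (-0.27) and elastin, Eln (0.12), highest. Mfap4 and Clec3b were below the floor on both arrays. Of 12 smooth muscle and pericyte markers, 5 passed, 1 was lower, and the median was -0.45, with a summed signal of 6542 in the knockout and 9633 in the wild type. The potassium channel gene Kcnj8 (-1.36) and Rgs5 (-0.56) were lowest, and Notch3 (-0.21) and Mcam (-0.21) highest. Of 8 mesothelial markers, 4 passed and 1 was lower, the keratin Krt19 (-1.95), which bile duct cells share. Krt19 and Upk3b passed through their wild-type signal. The median was -0.55, or -0.07 without probe sets of names ending _s_at, _x_at, _a_at or _f_at. These markers ran from Krt19 and Upk3b (-0.57) to Gpm6a (-0.53) and Upk1b (0.74). The summed signal was 591.4 in the knockout and 871.7 in the wild type.

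Of 11 bile duct cell markers, 7 passed, and these lay past 2-fold on the lower side, but 4 of them, Krt7, Krt19, Sox9 and Cldn7, had a knockout signal under the filter and passed through their wild-type signal. The median was -1.75, or -2.96 with the filter at the 70th percentile and -0.94 with the floor at the 60th, and 3 were past 2-fold in either case. The summed signal was 952.5 in the knockout and 6176 in the wild type. They ran from Cd24a (-3.40) and Tspan8 (-2.96) to Cldn7 (-1.34) and Sox9 (-1.06), and the probe sets of Tspan8 went both ways, up to 0.69. Endothelial markers, of cells that line the same sinusoids as stellate cells, had a median of -0.30. Of the 13 that passed, 1 lay past 2-fold, on the lower side, beside 8.96% of all genes. Their summed signal was 13536 in the knockout and 14717 in the wild type. They ran from Vwf (-1.20) and Emcn (-0.70) to Ptprb (0.36) and Clec4g (0.41). Macrophage markers went both ways, with 7 of 16 past 2-fold on the lower side, 3 on the higher and a median of -0.76, and 3 passed the filter through their knockout signal. Their summed signal was 44585 in the knockout and 68772 in the wild type. They ran from Gpnmb (-4.12) and Trem2 (-2.38) to Marco (at least 6.01-fold higher) and Cd163 (at least 23.9-fold higher). Hepatocyte markers had a median of 0.36, or 0.04 after quantile normalization, with 2 of 10 past 2-fold on the higher side and 0 on the lower. They ran from Ahsg (0.18) and Alb (0.27) to Tat (1.22) and Hpd, which had 50886 in the knockout and 25381 in the wild type. The summed signal was 515356 in the knockout and 374763 in the wild type.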

How the data were processed

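The authors deposited 1 linear intensity per probe set and array, computed with MAS5 per the submitters' processing notes. No source used here states the MAS5 settings, and detection calls were not used. Total RNA of liver was labelled as biotinylated cRNA, per the labels' protocols. Both arrays had a 2% trimmed mean of 500.0, a common scaling target. Of 45101 probe sets, 64 were controls, and 34945 named 1 gene in the platform annotation. A probe set was kept if its mean signal was at least 73.7, the median of such means, and a gene took its brightest kept probe set. Values were raised to a floor of 46.5, and a ratio with 1 floored value is a bound. Counts are at 2-fold. With 1 array per genotype no test, error between animals or paired fit exists, and the number of arrays limits the precision. The members, the 9 related gene lists, the 7 lists of other cell types and the alternatives were chosen with earlier results of these data known. From each list, up to 2 highest and 2 lowest ratios are named, and no genes of most like pattern, since any gene correlates at 1 or -1 over 2 arrays. Listed genes with no probe set naming them alone are not analysed here. Motifs were searched in RefSeq promoter windows. Python 3.11.15, pandas 2.3.3, numpy 2.4.6 and statsmodels 0.14.6 (loess, span 0.3) were used. The steps were also run on simulated data, with known changes put into a copy of the wild-type array. Those changes were all larger than 2-fold, so the run says nothing about ratios near 2-fold.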

Additional observations from a re-analysis of the deposited data

How the results depend on the processing

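Across 12 ways of processing, 113 of 115 member ratios moved by less than 0.446, the SD between probe sets of a gene. Much of that count was fixed in advance. Leaving out the floor or the filter, or a floor at the 20th percentile, could not move a member ratio. Scaling by a constant shifts all ratios alike. The count is thus no measure of how firm the ratios are. The exceptions were Tagln (-1.04) and Des (-0.77) with the floor at the 60th percentile, which lies above their knockout signals. That floor also gave the activation median of -1.04 and the difference of medians of -1.07. Members at least 2-fold lower numbered 2 with the filter at the 70th percentile, which removed Tagln, Des and Hgf, and 2 without cross-matching probe sets (names ending _s_at, _x_at, _a_at or _f_at), which removed Acta2 and Pdgfrb. Members past the size rule on the higher side numbered 1 with poly-A scaling and 1 at a rule of 1.5-fold, in both cases Ecm1. On the lower side they numbered 5 at 1.5-fold, where the quiescence gene Lrat, 1.81-fold lower, was added. The quiescence median ranged from -0.13 to 0.20 and took either sign. Among all genes, the lower share of calls at 2-fold was 70.1%, but 53.7% with poly-A and 80.5% with hybridisation control scaling; their number was 2038 at 1.5-fold and 409 at 3-fold. Of 192 related list medians, 181 moved by less than 0.446, and 5 took the other sign, 3 of the HGF pathway and 1 each of the retinoid and reelin lists. No paired analysis was possible because each genotype has 1 array. Genes near the floor are measured least well, among the members Des, Tagln and Hgf.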

Other observations

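Promoter motifs were also counted over the genes kept that have a window in the RefSeq table, 9490 in number, of which 8.39% were at least 2-fold lower in the knockout array. Of the 629 with an AP-1 site TGANTCA in the window, 14.5% were at least 2-fold lower, with a median log2 ratio of -0.12. Of the 146 with an exact CArG box, 11.6% were, with a median of -0.06. With 1 mismatch allowed, the form found in Acta2 and Lrat, 9.24% of 1028 were, with a median of -0.01. Of the 1393 with a TEAD site CATTCC, 9.62% were, with a median of -0.02. These shares describe 2 arrays and have no test.

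Among the listed genes that were under the filter, Hhip, a hedgehog-binding protein listed with the quiescent genes, had a signal of 79.4 in the knockout array and 6.03 in the wild-type array. Gli1, a hedgehog target listed with the portal fibroblast markers, had 7.16 in the knockout and 48.0 in the wild type, and Cspg4, the NG2 proteoglycan of pericytes, had 12.4 in the knockout and 117.6 in the wild type. These 3 genes were picked after their values were seen, and each lies below the floor on 1 array.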
